A study of Mus musculus with 4 samples.

Results

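The kinesin and dynein motor genes are the protein-coding genes whose symbols name a kinesin, a kinesin light chain, a chain of cytoplasmic dynein-1 or dynein-2, a dynein light chain or a subunit of dynactin. They were picked by symbol alone, and 74 of the 28193 genes in the table met the rule, of which 45 were kinesin genes and 29 were dynein or dynactin genes. Another 2 matching symbols, Kifc5c-ps and Dynlt1-ps1, are pseudogenes and were left out.

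The values come from fosTRAP-seq, in which ribosomes with an HA tag, made in CA1 neurons that had expressed Fos, are pulled out and their RNA is sequenced. Male C57BL/6J mice 3 to 5 months old received, per the study's methods, one viral vector with a Fos-driven, tamoxifen-dependent Cre and another with a Cre-dependent HA-tagged Rpl22, whereas the labels give the genotype as cFos-Cre:Ribotag and the tissue as dorsal hippocampus. All mice, in both groups, were given 4-hydroxytamoxifen and were sleep deprived for 5 h on day 0, so both groups carry the vectors, the drug and an earlier sleep loss. On day 7 the sleep-deprived (SD) mice were kept awake for 5 h by gentle handling, the non-sleep-deprived (NSD) mice were left undisturbed, and CA1 was taken at ZT 5. Each library pooled CA1 of 5 mice, with n = 2 libraries per group from 10 mice, so every standard error and p-value measures the spread between pools and not between single mice. The tag is meant to mark infected neurons that expressed Fos around the first session, but the study also saw some tagged cells in mice given vehicle in place of the drug, so part of the tagged cells need not be of that kind. RNA that sticks to the beads from untagged cells was not measured.

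Kinesins and cytoplasmic dynein are ATP-driven motors that walk along microtubules. Most kinesins move towards plus ends, which in axons point to the terminals, and so carry vesicle precursors, mitochondria and RNA granules outwards, while dynein with its activator dynactin carries endosomes, autophagosomes and signals back to the soma. Dendrites of pyramidal neurons hold microtubules of both polarities, so both motor families serve synapses there. Other kinesins build the mitotic spindle or work in cilia, and dynein-2 moves cargo within cilia.

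The 4 libraries held 153511705 to 195910235 estimated counts each. A gene was tested with edgeR when it had more than 5 counts in every library, and it was called when its Benjamini-Hochberg adjusted p was under 0.05 and its fold change over 1.2. The labels put the first NSD and the first SD library in batch 1 and the second ones in batch 2, and a fit with this batch as a block is given beside a result where it changed the call. Levels are given in CPM, the count of a gene relative to the total of its library, scaled with TMM factors. Of the 7 CA1 pyramidal marker genes, all were detected, led by Camk2a, the alpha subunit of CaM kinase II, at 4089.7 to 4379 CPM. In RNA pulled down from pools of cells, fewer cells of a type and less RNA per cell cannot be told apart.

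Of the 74 motor genes 68 were tested, and 2 were called, Kif5a and Dynll2, both higher in SD, with 0 lower. Among all 22338 genes tested 0.770% were called higher and 2.33% lower, or 3.10% in either direction. Among the protein-coding genes tested the shares were 0.952% higher and 0.540% lower. With the batch as a block 5 motor genes were called higher, Kif5a, Kif5c, Kif3b, Kif26b and Dynll2, and 2 lower, Dctn6 and Dynlt2a2, beside 2.99% higher and 8.47% lower, 11.5% in either direction, among all genes tested and 3.77% and 3.29% among protein-coding genes. An unadjusted p under 0.05 was reached by 11 of the 68 members (16.2%) in edgeR without the block, beside 19.1% of all genes tested and 14.6% of protein-coding genes, and DESeq2 called 5 higher and 1 lower, beside 2.99% and 5.79% of all genes tested. The SD libraries were both higher than the NSD libraries for 19 members and both lower for 9, beside 22.0% and 27.5% of all genes tested and 26.5% and 20.0% of the protein-coding genes.

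Kinesin-1 is the classic axonal cargo motor, a dimer of heavy chains encoded by Kif5a, Kif5b and Kif5c. Of these, Kif5a and Kif5c are expressed mainly in neurons and Kif5b in most cells. For Kif5a (chr10:127061565-127099217, minus strand) the NSD libraries measured 2587 and 2368 CPM and the SD libraries 3519 and 3803 CPM. Both SD libraries stood above both NSD libraries by more than the distance within either group, and the log2 fold change was 0.56 (SE 0.12), or 1.48-fold, with edgeR adjusted p = 0.0481. It was 0.44 in batch 1 and 0.68 in batch 2. With the batch block the edgeR adjusted p was 0.00139 and with DESeq2 it was 9.47e-10. Leaving out any 1 of the 4 libraries (NSD 1, NSD 2, SD 1 or SD 2) kept the log2 fold change between 0.50 and 0.66 but put the edgeR adjusted p between 0.0624 and 0.135, so the call rests on each of them.

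The second neuronal heavy chain, Kif5c (chr2:49509310-49664790, plus strand), measured 912 and 988 CPM in NSD and 1200.0 and 1237 CPM in SD. Its groups did not overlap, the log2 difference was 0.36 (SE 0.0982), and it was called with the block (edgeR adjusted p = 0.007202) but not without it (edgeR adjusted p = 0.0886). Kif5b, the ubiquitous heavy chain, had the smallest log2 difference of the heavy chains at 0.21 (SE 0.07503), from 255 and 246 CPM to 291 and 286 CPM. The groups did not overlap there either, and Kif5b was called neither without the block (edgeR adjusted p = 0.179) nor with it (edgeR adjusted p = 0.052). Taken as a sum, the heavy chains measured 3753 and 3602 CPM in NSD and 5009.9 and 5327 CPM in SD. Kif5a alone held 23.7% and 22.8% of all kinesin CPM in NSD and 28.6% and 28.9% in SD.

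**Figure D1:**
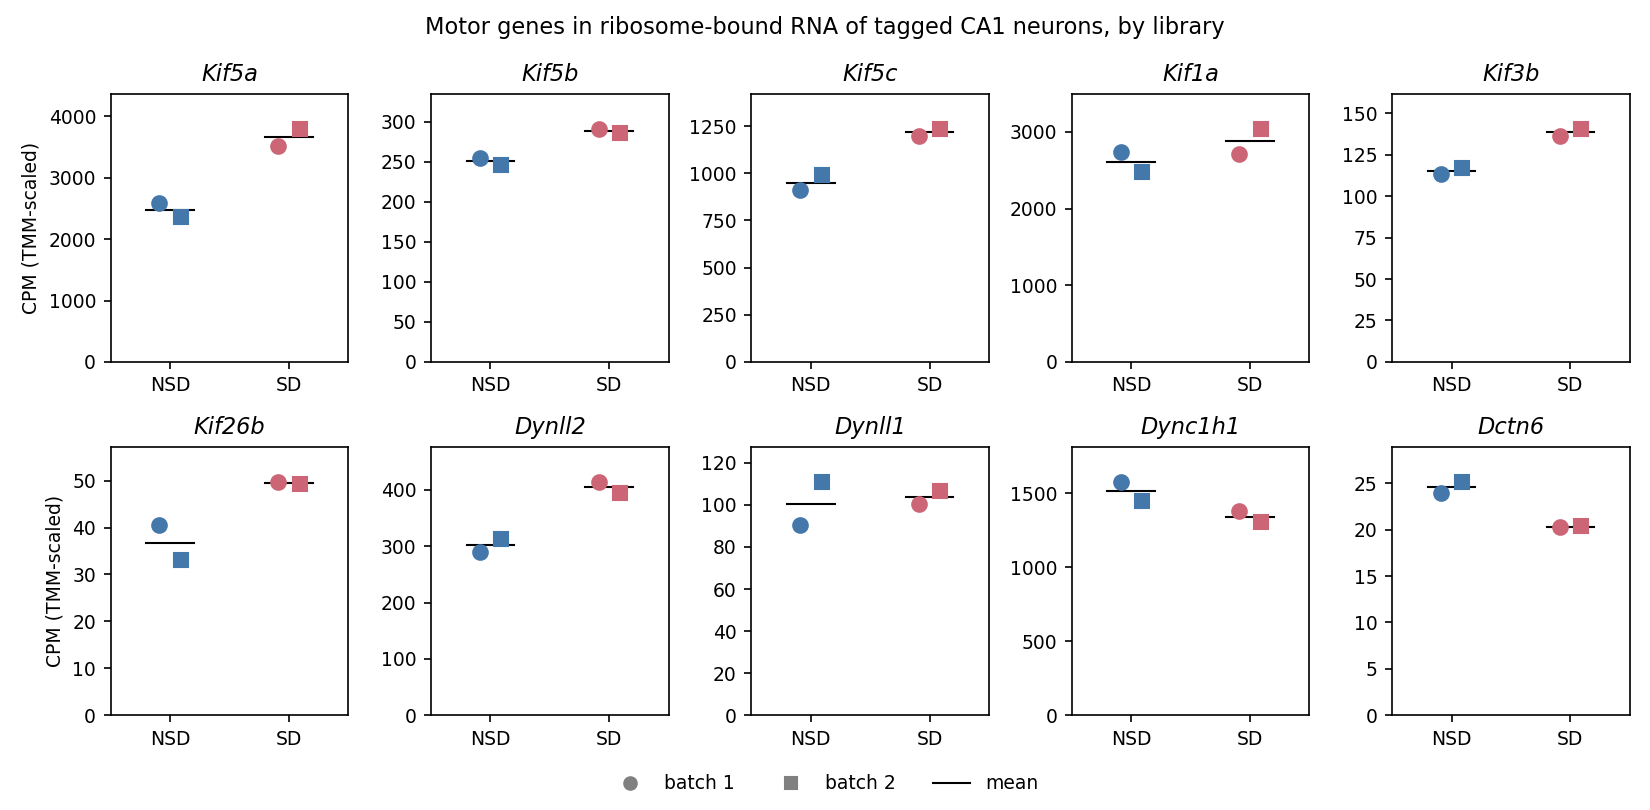
Level of 10 motor genes in each library, in TMM-scaled CPM on linear axes from 0, with circles for batch 1, squares for batch 2 and a line at the mean of each group (n = 2 libraries). Kif5a lies at 2368 and 2587 CPM in NSD and at 3519 and 3803 CPM in SD, whereas the NSD and SD points of Kif1a and Dynll1 overlap.

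The 250 bases before the annotated start of the canonical transcript are shown for Kif5c (chr2:49509015-49509264, plus strand) in GRCm39, because this heavy chain was called higher with the block. They were searched on both strands for sites of factors that act in active neurons, namely the cAMP response element (CRE) TGACGTCA, its shorter form TGACG, which lies within the full CRE, the AP-1 site TGANTCA, the E-box CACGTG and the EGR site GCGTGGGCG, and any match is in capitals.
Kif5c promoter: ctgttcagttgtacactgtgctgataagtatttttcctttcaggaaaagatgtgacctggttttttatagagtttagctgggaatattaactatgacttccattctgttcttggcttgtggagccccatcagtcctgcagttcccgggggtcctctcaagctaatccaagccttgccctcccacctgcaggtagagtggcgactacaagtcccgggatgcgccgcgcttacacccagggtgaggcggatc
The window held no match, which says only that these letters are not in these bases. Of 16943 windows of the same length before protein-coding genes, 1.82% held the CRE, 20.8% its shorter form, 5.01% the AP-1 site, 7.13% the E-box and 0.661% the EGR site. Of the 74 motor genes 2 held the CRE (Kif17 and Dctn3), 20 its shorter form, 3 the AP-1 site, 4 the E-box and 0 the EGR site.

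Kinesin light chains bind the tail of the heavy chains and link them to cargo. The 4 light chain genes, Klc1 to Klc4, were all tested and none was called, with a median log2 difference of 0.05. Klc2, the light chain with the highest level per kilobase of exon, measured 204 and 234 CPM in NSD and 222 and 241 CPM in SD. These ranges overlapped, and the 95% interval of the log2 difference was -0.13 to 0.29 (edgeR adjusted p = 0.7105). Klc1 had 374 and 408 CPM in NSD and 399 and 414 CPM in SD, also overlapping. The ratio of summed heavy chain CPM to summed light chain CPM was 6.398 and 5.54 in NSD and 7.95 and 8.03 in SD. Since CPM grow with transcript length, the size of such a ratio is not a ratio of molecules, and only its difference between libraries is read.

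Kinesin-3 motors carry synaptic vesicle precursors and dense core vesicles, with Kif1a and Kif1b as the main neuronal members and Kif13a, Kif13b and Kif16b linked to endosomal cargo. All 6 tested members had log2 differences above 0, from 0.07 to 0.22, and none was called. Kif1a (chr1:92943186-93029673, minus strand) was at 2745 and 2476 CPM in NSD and 2711 and 3045 CPM in SD. The SD 1 library lay between the NSD libraries, and the log2 difference was 0.14 (SE 0.12) with an interval of -0.14 to 0.42 and edgeR adjusted p = 0.6202. The difference was -0.02 in batch 1 and 0.30 in batch 2. Kif1b also overlapped between groups, at 2189 and 2044 CPM in NSD and 2188 and 2339 CPM in SD (edgeR adjusted p = 0.726). In Kif1c, a broadly expressed member, the SD libraries at 70.6 and 64.2 CPM lay above the NSD libraries at 60.95 and 54.9 CPM, with an edgeR adjusted p of 0.0191 in the block but a fold change of 1.16, under the 1.2 that a call needed. The ratio of Kif5a to Kif1a was 0.942 and 0.956 in NSD and 1.298 and 1.25 in SD.

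Kinesin-2 motors are dimers of Kif3a with Kif3b or Kif3c, or of Kif17 with itself, and they move cargo in cilia and dendrites, Kif17 being known for carrying NMDA receptor subunits. Kif3b (chr2:153133333-153175310, plus strand) measured 113 and 117 CPM in NSD and 136 and 141 CPM in SD. The SD libraries were both higher, with a log2 difference of 0.27 (SE 0.0673), and Kif3b was called with the block (edgeR adjusted p = 0.007396) but not without it (edgeR adjusted p = 0.0712). Its partner Kif3a was at 88.3 and 91.6 CPM in NSD and 90.5 and 91.3 CPM in SD, with an interval of -0.13 to 0.16 for the log2 difference. The ratio of Kif3b to Kif3a was 1.28 and 1.28 in NSD and 1.51 and 1.54 in SD. Kif3c, which has the highest level per kilobase of the kinesin-2 genes, had a log2 difference of 0.12 (SE 0.0783) and Kif17 one of 0.15 (SE 0.0949), and neither was called (edgeR adjusted p = 0.491 and 0.448).

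The window before Kif3b (chr2:153133075-153133324, plus strand, GRCm39) is shown because Kif3b was called higher with the block and its window held a match, the shorter CRE form beginning 39 bases before the start.
Kif3b promoter: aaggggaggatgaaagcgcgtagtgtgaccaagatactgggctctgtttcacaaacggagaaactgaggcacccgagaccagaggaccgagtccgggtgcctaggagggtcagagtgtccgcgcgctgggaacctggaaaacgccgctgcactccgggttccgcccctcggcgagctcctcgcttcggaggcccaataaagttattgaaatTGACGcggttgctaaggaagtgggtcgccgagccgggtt
The match is in capitals and is a description of the sequence, not a measured site. It was the 1 match to any of the motifs among the windows of the 5 genes called higher with the block, beside 20.8% of all windows that held this shorter form.

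Kinesin-4 genes were tested for 4 of 4 members, with 0 called. Kif21a, an axonal member that limits microtubule growth, led the class at 268 and 285 CPM in NSD and 291 and 300.1 CPM in SD. Those groups did not overlap, but the log2 difference of 0.10 (SE 0.0781) was not called (edgeR adjusted p = 0.585). Kif7 and Kif27, relatives known from cilia and Hedgehog signalling, stood at a mean of 1.21 and 5.89 CPM.

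Among the 9 other kinesins, 8 were tested, 7 had log2 differences above 0, and 1, Kif26b, was called with the block. Kif26b (chr1:178356690-178766765, plus strand) encodes an atypical kinesin that binds microtubules without walking. Its level was 40.5 and 33.1 CPM in NSD and 49.8 and 49.3 CPM in SD. The SD libraries were nearly equal and both above NSD, with a log2 difference of 0.43 (SE 0.09602). The edgeR adjusted p was 0.0532 without the block and 0.00132 with it, and the difference was 0.30 in batch 1 and 0.58 in batch 2. Without NSD 1 the log2 difference was 0.61 and without NSD 2 it was 0.29, and Kif26b was called in the edgeR fits without NSD 1, without SD 1 and without SD 2. Kifc2, a minus-end-directed kinesin of neurons and the highest of this class per kilobase, had 296 and 269 CPM in NSD and 304 and 302 CPM in SD, not overlapping and not called (edgeR adjusted p = 0.587). Kif2a, which takes microtubules apart at their ends, went from 94.5 and 99.9 CPM to 104 and 108 CPM, also without overlap and without a call (edgeR adjusted p = 0.372).

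Kif19a, a motor of motile cilia, had the largest log2 difference above 0 of the members at 1 CPM or more. Its level was 1.21 and 1.13 CPM in NSD and 2.21 and 1.39 CPM in SD, from 178 to 399 estimated counts. The groups did not overlap, but the SD libraries differed from each other more than SD 2 differed from NSD, and with a log2 difference of 0.62 (SE 0.29) the gene was not called (edgeR adjusted p = 0.306). The ciliary relatives Kif6 and Kif9 had log2 differences of 0.01 and -0.08. Of 10 ependymal and multiciliated markers 9 were listed and 6 were tested, 0 of them called, and their summed level was 16.6 and 15.6 CPM in NSD and 19.1 and 16.4 CPM in SD. Ccdc153, Mia and Deup1 were at or near 0, and the part of such cells in the level of Kif19a was not tested.

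Most of the 14 genes classed here as mitotic kinesins build the spindle, move chromosomes or complete cytokinesis. Their summed level was only 11.5 and 10.8 CPM in NSD and 10.9 and 9.73 CPM in SD for the whole class. All 14 were tested and 0 were called by edgeR, without or with the block, or by DESeq2, and 0 had an unadjusted p under 0.05. Log2 differences were below 0 for 10 and above 0 for 4, and 4 of the 14, or 28.6%, had both SD libraries below both NSD libraries, beside 27.5% of all genes tested and 20.0% of protein-coding genes. Kif11, the spindle motor that pushes the poles apart, measured 1.13 and 1.43 CPM in NSD and 0.952 and 0.698 CPM in SD. That was the second lowest log2 difference of the members at 1 CPM or more, -0.63 (SE 0.31) (edgeR adjusted p = 0.325). Kif24, a microtubule-depolymerizing kinesin of centrioles and the highest of the class per kilobase, had 2.97 and 2.56 CPM in NSD and 3.004 and 3.54 CPM in SD. Markers of dividing cells summed to 9.48 and 7.54 CPM in NSD and 8.38 and 8.12 CPM in SD, 7 of the 10 were tested with 0 called, and Ube2c, Aurkb and Ccnb1 were near 0. How much of the mitotic kinesin level came from dividing cells was not tested.

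**Figure D2:**
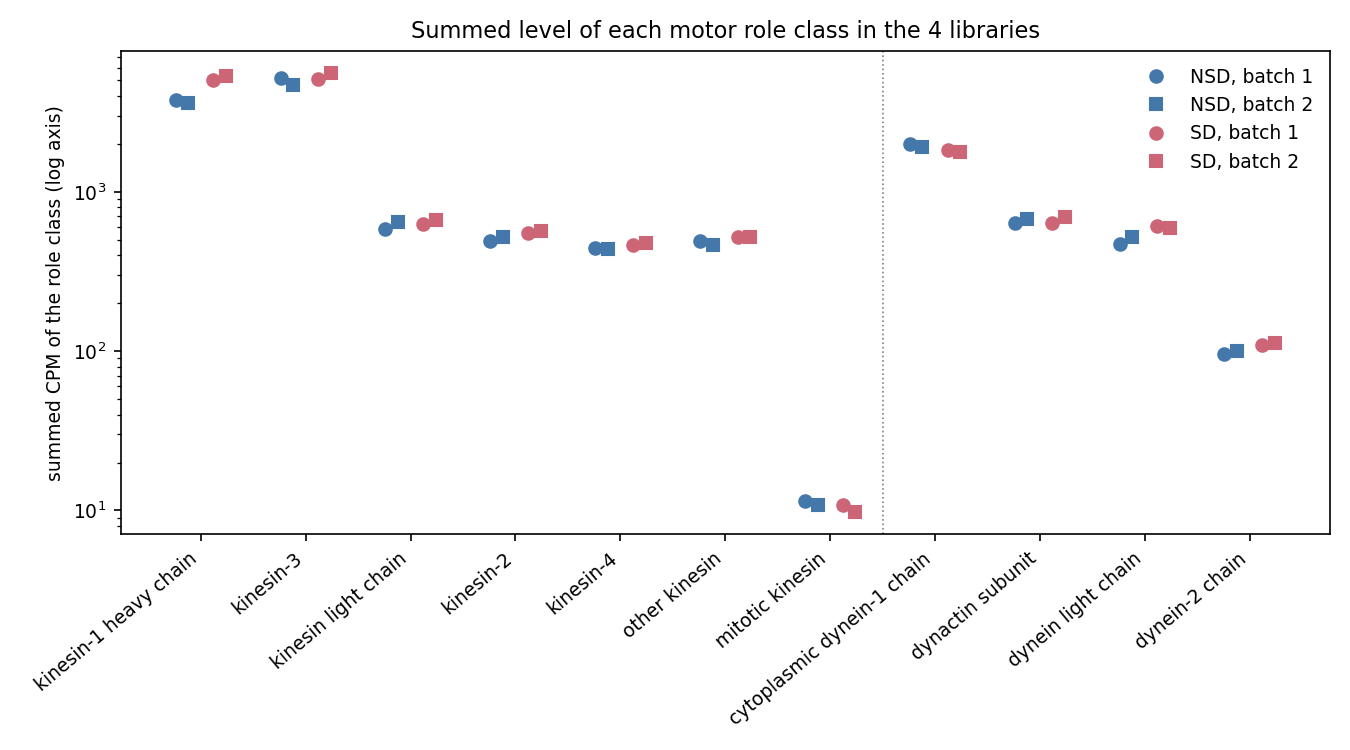
Summed TMM-scaled CPM of each role class in the 4 libraries on a log axis, kinesin classes left of the dotted line and dynein and dynactin classes right of it, with circles for batch 1 and squares for batch 2. Kinesin-1 heavy chains lie at 3602 and 3753 CPM in NSD and at 5010 and 5327 CPM in SD, and cytoplasmic dynein-1 chains lie at 1914 and 2004 CPM in NSD and 1786 and 1841 CPM in SD.

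Cytoplasmic dynein-1 is the minus-end-directed motor of axons and dendrites, built on the heavy chain Dync1h1 with intermediate chains (Dync1i1 and Dync1i2) and light intermediate chains (Dync1li1 and Dync1li2). Of the 5 genes 0 were called. Dync1h1 (chr12:110567886-110633379, plus strand) measured 1578 and 1450.0 CPM in NSD and 1382 and 1304 CPM in SD. Both SD libraries were below both NSD libraries, but the log2 difference of -0.17 (SE 0.10) had an interval of -0.41 to 0.07 and was not called (edgeR adjusted p = 0.437, with the block 0.183). Dync1li2, which ties dynein to cargo adaptors, went the other way, from 175 and 187 CPM to 211 and 206 CPM, with an edgeR adjusted p of 0.176. Dync1i2 was lower in both SD libraries at 65.3 and 69.2 CPM than in the NSD libraries at 72.9 and 75.7 CPM, with an edgeR adjusted p of 0.2897. Dync1i1 and Dync1li1 overlapped between groups.

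Dynein-2 works in cilia, and its 4 chain genes had log2 differences from 0.06 to 0.21, with 0 called. The heavy chain Dync2h1 had 68.8 and 71.97 CPM in NSD and 78.6 and 84.8 CPM in SD, without overlap. Its edgeR adjusted p was 0.133 without the block and 0.0191 with it, and its fold change of 1.16 was under 1.2.

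Dynein light chains of the LC8 type, Dynll1 and Dynll2, dimerize and clamp short motifs in the dynein intermediate chain and in many other proteins, and Dynll2 is also a light chain of myosin Va, a motor of dendritic spines. Dynll2 (chr11:87870351-87878359, minus strand) measured 291 and 312 CPM in NSD and 415 and 395 CPM in SD. The SD libraries were both higher by more than the distance within either group, with a log2 fold change of 0.43 (SE 0.0829), or 1.34-fold, and Dynll2 was called (edgeR adjusted p = 0.0403, with the block 0.00155, with DESeq2 2.95e-07). The change was 0.51 in batch 1 and 0.34 in batch 2. Without NSD 1 the edgeR adjusted p was 0.0893 and without SD 1 it was 0.0643, so the call was lost without either of these batch 1 libraries, at log2 fold changes of 0.40 and 0.39. Dynll1 measured 90.3 and 111 CPM in NSD and 101 and 107 CPM in SD. Those libraries overlapped, with a log2 difference of 0.04 (SE 0.0987), an interval of -0.18 to 0.27 and edgeR adjusted p = 0.879. The ratio of Dynll2 to Dynll1 was 3.22 and 2.81 in NSD and 4.13 and 3.702 in SD. The difference between the changes of these genes was not tested.

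The coding sequences of Dynll1 and Dynll2 are shown without the stop codon because only one of these near relatives was called. They show how far the coding parts differ, which is a small part of the merged exons (4.8 kb for Dynll1 and 4.394 kb for Dynll2). The other exon bases were not compared, so how well reads tell these genes apart was not measured. Both are 267 bases long in the canonical transcripts of GRCm39 and differ at 50 bases, in capitals, of which 45 are the third base of a codon, so that 81.3% of the bases are identical.
Dynll1 coding sequence: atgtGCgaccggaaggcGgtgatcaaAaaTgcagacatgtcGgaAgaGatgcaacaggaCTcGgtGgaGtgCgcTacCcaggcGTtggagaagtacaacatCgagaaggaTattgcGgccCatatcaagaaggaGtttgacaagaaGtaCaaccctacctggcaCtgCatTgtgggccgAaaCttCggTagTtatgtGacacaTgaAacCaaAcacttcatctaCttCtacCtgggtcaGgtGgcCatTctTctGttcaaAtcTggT
Dynll2 coding sequence: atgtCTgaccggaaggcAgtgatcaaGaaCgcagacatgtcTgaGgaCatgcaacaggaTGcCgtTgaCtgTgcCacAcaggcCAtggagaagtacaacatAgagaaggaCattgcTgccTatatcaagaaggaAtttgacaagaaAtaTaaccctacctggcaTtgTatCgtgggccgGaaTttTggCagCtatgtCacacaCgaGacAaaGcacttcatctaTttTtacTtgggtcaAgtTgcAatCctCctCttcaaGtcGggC
The capitals are spread along the whole sequence. In the GENCODE M39 annotation exons of Dynll1 share 1417 bases with Coq5, which lies on the opposite strand and had 22.1% of its count. The library kit keeps the strand of RNA, but whether the counting used it is not given in the sources used here.

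The remaining light chains are of the roadblock and Tctex types. Dynlrb1 and Dynlt3, the highest of these, had overlapping groups and log2 differences of 0.04 and 0.04. Dynlt2a2, a Tctex-type gene of the t-complex region on chromosome 17, measured 2.18 and 1.11 CPM in NSD and 0.752 and 0.455 CPM in SD, and every SD library was lower than every NSD library. Its log2 difference of -1.45 (SE 0.41) was not called without the block (edgeR adjusted p = 0.0945) and was called with it (edgeR adjusted p = 0.00426). Without NSD 1 the value was -0.86, and without SD 1 it was -1.85 and called. The gene is uncertain, since its coding sequence differs from that of Dynlt2a3 at 1 of 573 bases, its counts are fractional, and its exons in GENCODE M39 overlap the antisense gene Gm3435. Dynlt1a, Dynlt1b, Dynlt1c and Dynlt1f are close copies that may share reads, which was not measured, with coding sequences of Dynlt1a and Dynlt1f 99.5% identical, and none was called. Kifc1 and Kifc5b, mitotic kinesins 98.1% identical in coding sequence, are uncertain in the same way, and Kifc5b had 1.399 and 1.22 CPM in NSD and 1.21 and 0.994 CPM in SD (edgeR adjusted p = 0.714).

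Dynactin joins dynein to adaptors and makes it processive. Of its 6 subunit genes matched by symbol, 0 were called without the block and 1, Dctn6, was lower with it. Dctn6, a subunit of the pointed-end complex (chr8:34557574-34575950, minus strand), measured 23.99 and 25.2 CPM in NSD and 20.3 and 20.4 CPM in SD. The groups did not overlap, the log2 difference was -0.27 (SE 0.0772), and the edgeR adjusted p was 0.09503 without the block and 0.0208 with it, while DESeq2 gave 0.0727. The largest subunit, Dctn1 or p150Glued, which binds microtubules and dynein, was the highest of the class per kilobase and was at 357 and 383 CPM in NSD and 370.0 and 404 CPM in SD, overlapping. Dctn4 lay in all 4 libraries within 98.3 to 101 CPM. Dctn2 lies next to Kif5a on chromosome 10 on the other strand and had a log2 difference of -0.05. The spans of these genes in the deposited table do not overlap, whereas in the later GENCODE M39 annotation their exons share 276 bases. The count of Kif5a was 3517% of that of Dctn2.

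**Figure D3:**
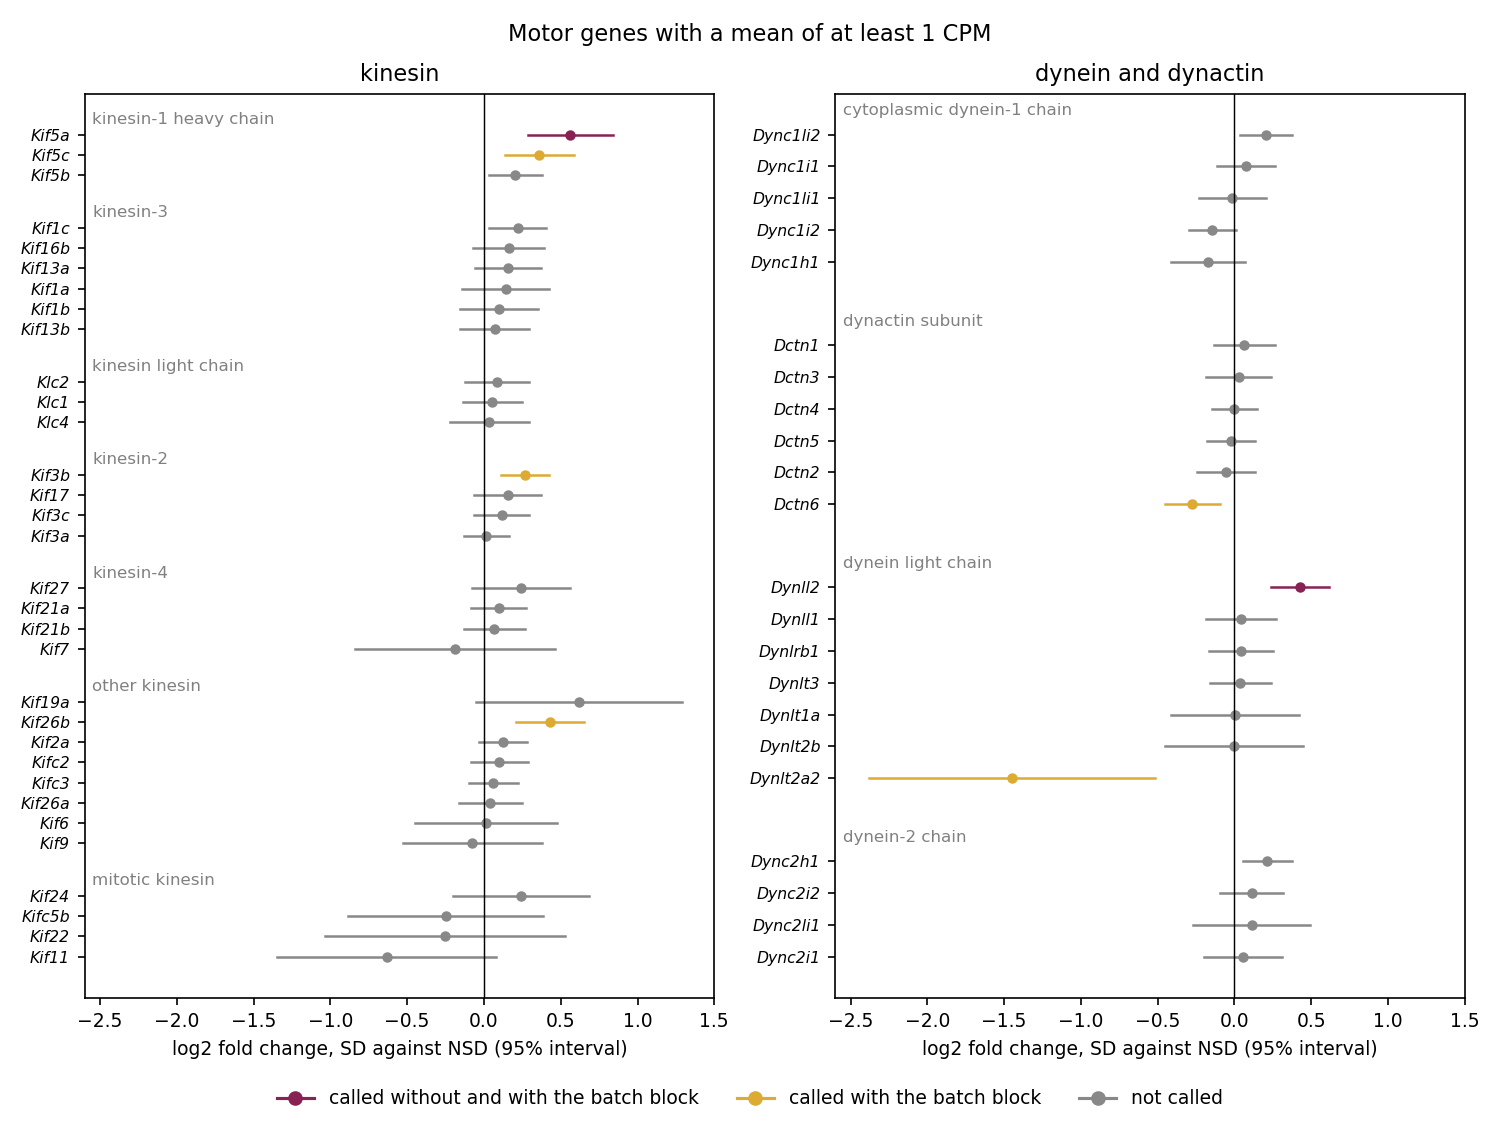
Log2 fold change of SD against NSD with its 95% interval from edgeR without the block, for the 54 motor genes with a mean of at least 1 CPM, by role class, with 32 kinesins on the left and 22 dynein and dynactin genes on the right. Points are coloured by whether the gene was called without and with the batch block (Kif5a and Dynll2), with the block (Kif5c, Kif3b, Kif26b, Dctn6 and Dynlt2a2) or in neither fit, and 27 of the kinesins lie above 0.

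Kinesins were then set against dynein and dynactin. Of the 43 kinesins tested 30 had log2 differences above 0, with a median of 0.07, and of the 25 dynein and dynactin genes tested 15 did, with a median of 0.03. Over all genes tested the median was -0.02 with 47.2% above 0, and over protein-coding genes it was 0.02 with 54.2% above 0. Within batches the kinesin median was 0.06 and 0.09, and the dynein and dynactin median was 0.05 and -0.03. Of 3742 protein-coding genes with a mean of at least 50 CPM, 2760 were above 0 with a median of 0.07. At that level 16 of 16 kinesins were above 0 with a median of 0.11, and 8 of 12 dynein and dynactin genes with a median of 0.04. Without NSD 2 the order turned, with medians of 0.048 for kinesin and 0.12 for dynein and dynactin. These counts and medians carry no test, since genes are not replicates.

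The summed kinesin level was 10925 and 10382 CPM in NSD and 12311 and 13148 CPM in SD, higher in both SD libraries. Dynein and dynactin together measured 3203 and 3213 CPM in NSD and 3203 and 3181 CPM in SD, all within a narrow range. Classes within that sum moved in opposite directions. The dynein-1 chains went from 2004 and 1914 CPM to 1841 and 1786 CPM, and the light chains from 468 and 520 CPM to 611 and 591 CPM. Dynein-2 chains were higher in both SD libraries and dynactin overlapped. The ratio of the kinesin sum to the dynein and dynactin sum was 3.41 and 3.23 in NSD and 3.84 and 4.13 in SD. Without Kif5a the kinesin sum was 8338 and 8014 CPM in NSD and 8792 and 9345 CPM in SD, and the ratio was 2.603 and 2.49 in NSD and 2.75 and 2.94 in SD. The SD libraries thus stayed above the NSD libraries without the leading gene, at a smaller distance. Kinesin-3, the most abundant class in NSD, summed to 5142 and 4698 CPM in NSD and 5123 and 5587 CPM in SD, with overlapping groups.

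**Figure D4:**
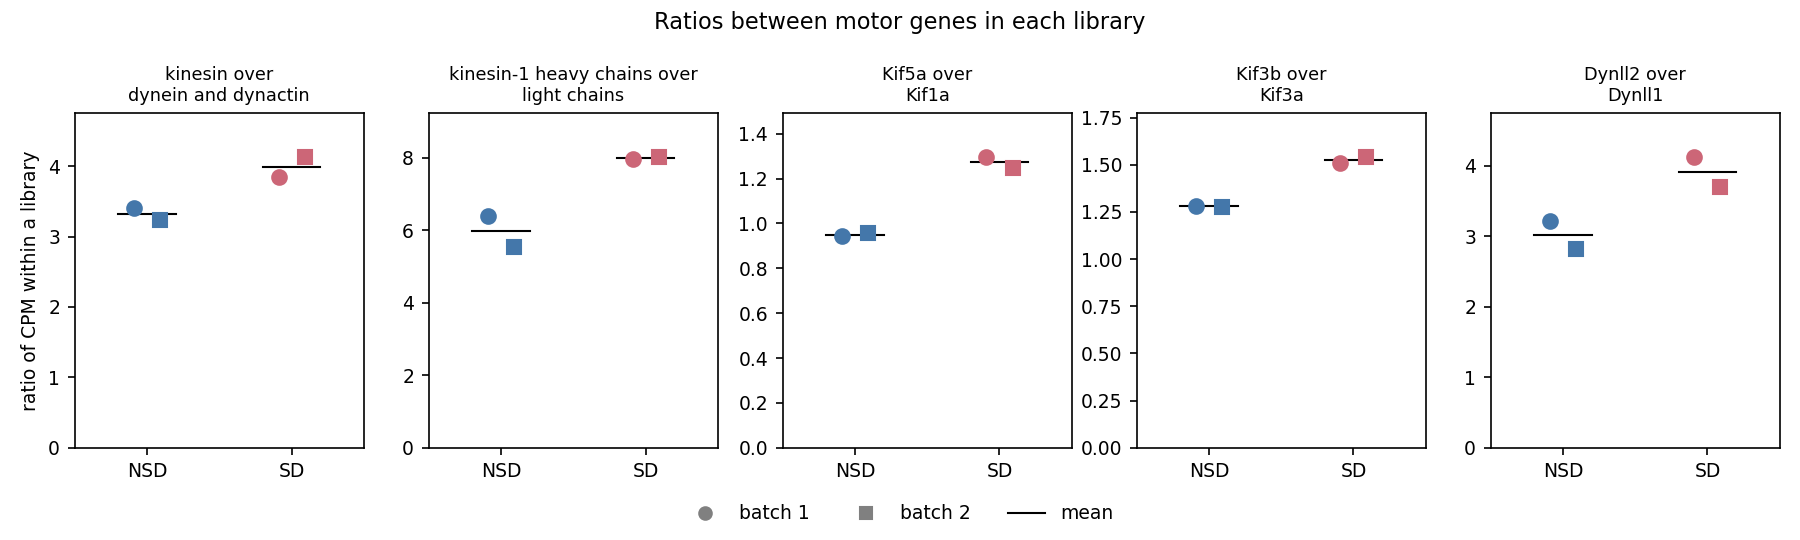
Ratios of CPM between motor genes or classes in each library on linear axes from 0, with circles for batch 1, squares for batch 2 and a line at the group mean. In all 5 panels the SD points lie above the NSD points, for kinesin over dynein and dynactin at 3.84 and 4.13 against 3.41 and 3.23. Each numerator is or contains a gene called higher with the block (Kif5a, Kif3b or Dynll2), and several contain Kif5a. The panels are therefore not independent, and their shared direction adds no support beyond the calls of these genes.

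Levels between genes were compared per kilobase of exon. Kif5a ranked 25th and Kif1a 26th of 15533 protein-coding genes, at 269 and 252 CPM per kilobase over the 4 libraries. In NSD the level per kilobase was 252 and 228 for Kif1a and 226 and 207 for Kif5a, and in SD it was 249 and 279.9 for Kif1a and 308 and 333 for Kif5a. The order of these genes in NSD depends on the length used, since per kilobase of the longest transcript Kif5a was higher in every library, at 434 against 296 for Kif1a over the 4 libraries. Per kilobase of exon, next came Kif1b, Dynll2, Dync1h1 and Kif5c at 88.7, 80.4, 80.2 and 76.1 CPM per kilobase. The order within these 4 does not exceed their spread over libraries, since Dynll2 spanned 66.2 to 94.4. Of the 74 members 19 had a mean over 100 CPM and 20 a mean under 1 CPM.

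The 6 members that failed the count filter were Kif19b, Kif28, Dynlrb2, Dynlt2a3, Dynlt4 and Dynlt5. Each had at most 13.01 estimated counts in any library. Dynlrb2, a roadblock light chain of ciliated cells, had 7 and 10 in NSD and 1 and 0 in SD, too few for a comparison.

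Motors need adaptors and regulators, and 48 such genes were listed, 26 for kinesin and 22 for dynein. Of the 47 tested, 36 had log2 differences above 0 with a median of 0.06, 4 (8.51%) had an unadjusted p under 0.05, beside 19.1% of all genes tested and 14.6% of protein-coding genes, and edgeR called 0. The share above 0 was 76.6%, beside 47.2% of all genes tested, 54.2% of protein-coding genes and 73.8% of protein-coding genes with a mean of at least 50 CPM, a level that not every listed gene reached. With the block 1 was called higher, Hook3, an adaptor that binds dynein and dynactin to endosomes, and DESeq2 also called 1. Hook3 measured 150.1 and 146 CPM in NSD and 198 and 166 CPM in SD, not overlapping, with a log2 difference of 0.30 (SE 0.0918) and edgeR adjusted p = 0.116 without and 0.0103 with the block. Trak2, which couples kinesin-1 and dynein to mitochondria, was at 228 and 219 CPM in NSD and 248 and 260.3 CPM in SD (edgeR adjusted p = 0.232). Kifap3, the accessory subunit of the Kif3a and Kif3b dimer, was at 246 and 275 CPM in NSD and 244 and 274 CPM in SD, overlapping. Pafah1b1, the dynein regulator LIS1, was at 649 and 696 CPM in NSD and 746 and 736 CPM in SD (edgeR adjusted p = 0.468).

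Marker genes of cell types were read beside these results. The CA1 pyramidal markers summed to 5657 and 5872 CPM in NSD and 5343 and 5771 CPM in SD, 0 of 7 were called without the block, and the genes lower with it included Wfs1, Fibcd1 and Neurod6. Endothelial markers summed to 33.8 and 47.1 CPM in NSD and 27.9 and 18.6 CPM in SD, with 0 of 5 called without the block and 4 lower with it. The choroid plexus list summed to 59.8 and 130.2 CPM in NSD and 62.1 and 39.3 CPM in SD, with Kl the 1 gene called lower of 4 tested. Kl measured 45.2 and 57.4 CPM in NSD and 35.4 and 34.9 CPM in SD. Ttr, at 14.2 and 69.8 CPM in NSD and 25.6 and 4.21 CPM in SD, overlapped and was highest in NSD 2. Folr1 failed the count filter and was also highest in NSD 2, at 0.802 CPM. Astrocyte markers summed to 455 and 414 CPM in NSD and 463 and 428 CPM in SD, oligodendrocyte markers to 1683 and 1399 CPM in NSD and 1642 and 1557 CPM in SD, microglia markers to 71.9 and 56.5 CPM in NSD and 71.5 and 54.8 CPM in SD and interneuron markers to 809.8 and 774 CPM in NSD and 796 and 719 CPM in SD, with overlapping groups in each case and 0 genes called without the block. Among the interneuron markers Sst was called lower with it. The part of cell composition in the motor gene levels was not tested.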

How the data were processed

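Ribosome-bound RNA of 4 pools (2 NSD, 2 SD, each CA1 of 5 mice) was sequenced as 150 bp pairs. The table is deposited as estimated counts, not normalized. To make them the authors trimmed poor 3' bases, used STAR for alignment and assigned reads to Ensembl release 110 genes on mm39 by Partek Flow's expectation-maximization step. Such a model can split a read between genes, and 55.5% of the genes have a value that is not whole within 1e-06. The lowest gene total was 10. Stop positions lie 1 base past the annotated end for most genes, and ends are given here as annotated.

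After rounding, the 22338 genes whose count exceeded 5 in each library were fitted in R 4.3.3 with edgeR 4.0.16 (limma 3.58.1), using TMM scaling and a quasi-likelihood test of condition, with p-values adjusted by Benjamini-Hochberg over all of them. The count filter and the thresholds follow the study's methods, which used DESeq2. The common dispersion was 0.0296. The scripts were tested on simulated counts. Intervals are 95% intervals of the fit, and log2 values of single batches used a prior count of 2. Libraries held 153511705 to 195910235 counts.

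The batch number in the labels pairs the libraries, and across genes, libraries of the same batch deviated from their groups with a correlation of 0.178. Alternatives were the batch as a block, DESeq2 1.42.0, its size factors in edgeR, no count filter, filterByExpr, protein-coding genes only, a fold change over 1.5 or none, and each library left out. Sums without Kif5a and a background of genes with a mean of at least 50 CPM were added after seeing the data.

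Named are all members called with or without the block, the highest per kilobase in each role, and the 5 largest rises and falls among members with a mean of at least 1 CPM whose groups do not overlap. Others named were chosen after their values were seen, for their role. The members, the partner lists and the marker lists were chosen with earlier results of these data known. Exons, coding sequences and starts came from GENCODE M39 on GRCm39, and exons of a gene were merged for its length.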

Additional observations from a re-analysis of the deposited data

How the results depend on the processing

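With 2 libraries per group the adjusted p-values lie close to the threshold, and the counts of calls moved with the settings. Across all genes 172 were called higher and 520 lower. With the replicate block, that is the batch that pairs the libraries, 668 were higher and 1891 lower, and with DESeq2 669 and 1294. Without a count filter they were 50 and 80, with filterByExpr 1 and 0, and with protein-coding genes only 51 and 39, and at a fold change over 1.5 they were 43 and 470. Leaving out 1 library gave 124 to 308 higher and 78 to 1955 lower.

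Of the motor genes 2 were called higher and 0 lower. The block gave 5 and 2, and DESeq2 gave 5 and 1. The higher count was 0 without a count filter (edgeR adjusted p of 0.0519 for Kif5a and 0.0518 for Dynll2), 0 with filterByExpr, 0 with protein-coding genes only and 0 at a fold change over 1.5. Leaving out 1 library changed which motor genes were called, with Kif5a called in no such fit and Kif26b, not called in the main fit, called in some. Among these fits Dynlt2a2 and Kif15 were called lower only without SD 1. The log2 fold changes stayed at 0.50 to 0.66 for Kif5a, 0.39 to 0.48 for Dynll2 and 0.29 to 0.61 for Kif26b. The partner genes went from 0 higher to 1 with the block and 1 with DESeq2, and leaving out 1 library gave 0 to 1, Hook3 without SD 2. DESeq2's size factors in edgeR and no fold threshold left the counts of motor genes at 2 and 0.

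The kinesin median of 0.07 (log2) was 0.092 with DESeq2, 0.092 with its size factors in edgeR, 0.11 without a count filter, 0.049 with protein-coding genes only and 0.10 for members with a mean of at least 1 CPM. The log2 ratio of the summed CPM was 0.26, and 0.15 without Kif5a. Leaving out 1 library gave a kinesin median of 0.048 (without NSD 2) to 0.12 (without NSD 1), and a dynein and dynactin median of -0.0036 (without NSD 1) to 0.12 (without NSD 2), so the median of the kinesins was below that of dynein and dynactin without NSD 2. The order of the 2 families therefore rests on that library. With 1 library left in a group, the lone library is assumed to vary like the other group.

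With the block Kif5a, Dynll2, Kif5c, Kif3b and Kif26b were called higher and Dctn6 and Dynlt2a2 lower, and no other motor gene changed its call. The leading gene per kilobase was the same in 10 of 11 roles when the longest transcript replaced the merged exons. Of 19 named genes, 0 reversed direction in any alternative, but leaving out each library in turn gave, for those whose extremes lay over 1.5 times apart, log2 differences of -1.85 to -0.86 for Dynlt2a2, 0.24 to 0.93 for Kif19a, -0.87 to -0.41 for Kif11, 0.29 to 0.61 for Kif26b, -0.40 to -0.10 for Kifc5b, 0.13 to 0.38 for Kif24, 0.066 to 0.25 for Kif1a, 0.017 to 0.19 for Klc2, 0.033 to 0.20 for Kifc2, -0.23 to -0.082 for Dync1h1, 0.012 to 0.13 for Dctn1, 0.17 to 0.27 for Dync2h1, 0.10 to 0.17 for Kif3c and 0.083 to 0.14 for Kif21a.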
